A study of Mus musculus with 8 samples.

Results

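CXC chemokines are small secreted proteins that draw leukocytes along a gradient. The genes described here are 10 CXC chemokine genes that attract neutrophils or lymphocytes: Cxcl1, Cxcl2, Cxcl3, Cxcl5, Cxcl9, Cxcl10, Cxcl12, Cxcl13, Cxcl14 and Cxcl16. They were chosen by symbol, through the RefSeq identifier of each row in the deposited expression table, and all 10 had exactly 1 row among 24625 rows and 19836 distinct gene symbols. Expression was measured in neutrophils from the lungs of wild type (WT) mice, on 1 Affymetrix Mouse Gene 1.1 ST array per sample. The mice were aged 6 to 12 weeks per the labels, while the study's methods give a narrower range of age. The methods name C57BL/6 J mice, bought as adult females to found colonies, and describe the mice studied as sex-matched. In the pneumonia group (SP, 4 arrays), mice were given Streptococcus pneumoniae in suspension, 2.3 µl for each g of body weight, by the intratracheal route to the left lung. Control mice (PBS, 4 arrays) had received phosphate-buffered saline, and lungs of both groups were taken after 24 h. Cells of both groups came from enzyme-digested whole lung and were pulled out by magnet after labelling of Ly6G, which is carried on the surface of murine neutrophils. Other lung cells that came through with the beads would therefore count towards the signal. The methods describe a check of purity by microscopy for the pneumonia samples only. By that check nearly all cells were neutrophils, and the few others mostly looked like alveolar macrophages.

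The CXC family is divided by the ELR motif, a glutamate, leucine and arginine ahead of the paired cysteines. Chemokines with this motif, here Cxcl1, Cxcl2, Cxcl3 and Cxcl5, bind the receptor Cxcr2 and are the main neutrophil attractants of the mouse lung. Cxcl9 and Cxcl10 lack the motif, are classical products of interferon signalling and attract activated T cells and NK cells through Cxcr3. Cxcl12 and Cxcl13 are made by stromal cells at rest, and their receptors Cxcr4 and Cxcr5 hold neutrophils in the bone marrow and guide B cells to follicles. Cxcl14 is made by epithelium and fibroblasts, and Cxcl16 is a membrane-bound ligand of Cxcr6 that also takes up oxidised lipid.

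The promoters of 8 of the 10 genes were listed in the RefSeq promoter table (GRCm38.p6), and the 250 bases before the annotated start are shown for the genes on which the results turn, the neutrophil attractants Cxcl1, Cxcl2 and Cxcl3 and the T cell attractants Cxcl10 and Cxcl9. Cxcl5 and Cxcl16 had no entry. Sequences run 5′ to 3′ on the strand of the gene, and capitals mark matches to the NF-κB consensus or to the interferon-stimulated response element (ISRE), spelled GAAANNGAAA. Cxcl1, Cxcl2 and Cxcl3 lie on the plus strand at chr5:90890995-90891244, chr5:90903649-90903898 and chr5:90785851-90786100, and Cxcl10 and Cxcl9 on the minus strand at chr5:92348890-92349139 and chr5:92328080-92328329.
Cxcl1: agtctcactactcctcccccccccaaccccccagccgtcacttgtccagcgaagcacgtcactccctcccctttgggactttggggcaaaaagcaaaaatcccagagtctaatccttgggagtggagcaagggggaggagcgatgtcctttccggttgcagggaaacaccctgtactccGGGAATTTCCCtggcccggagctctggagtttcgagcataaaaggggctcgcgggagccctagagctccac
Cxcl2: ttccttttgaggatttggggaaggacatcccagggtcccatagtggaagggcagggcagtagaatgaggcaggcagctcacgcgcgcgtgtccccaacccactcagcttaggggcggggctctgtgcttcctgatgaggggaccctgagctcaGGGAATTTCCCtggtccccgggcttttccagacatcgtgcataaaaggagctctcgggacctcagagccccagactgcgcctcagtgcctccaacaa
Cxcl3: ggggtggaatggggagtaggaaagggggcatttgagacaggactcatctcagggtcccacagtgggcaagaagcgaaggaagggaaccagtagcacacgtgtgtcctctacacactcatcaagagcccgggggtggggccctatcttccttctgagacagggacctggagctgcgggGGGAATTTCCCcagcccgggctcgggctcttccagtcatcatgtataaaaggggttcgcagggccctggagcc
Cxcl10: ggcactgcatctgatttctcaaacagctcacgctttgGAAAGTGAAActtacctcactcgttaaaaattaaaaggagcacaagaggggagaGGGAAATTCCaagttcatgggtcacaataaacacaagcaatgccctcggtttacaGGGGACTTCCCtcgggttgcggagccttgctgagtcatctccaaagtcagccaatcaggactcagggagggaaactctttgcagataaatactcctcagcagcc
Cxcl9: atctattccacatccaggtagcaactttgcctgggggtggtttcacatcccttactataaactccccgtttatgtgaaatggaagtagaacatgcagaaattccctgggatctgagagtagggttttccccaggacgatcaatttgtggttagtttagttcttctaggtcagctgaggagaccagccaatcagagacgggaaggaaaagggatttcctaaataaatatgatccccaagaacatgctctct

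The promoters of Cxcl1, Cxcl2 and Cxcl3 shared the same run of 11 bases, GGGAATTTCCC, which holds overlapping NF-κB matches on both strands. It began 71, 97 and 73 bases before the start, respectively. This run was present in 14 of 32851 mouse promoters of the same length (0.0426%), these 3 included. It was picked because these 3 promoters share it, so its rarity is no test of a link. The NF-κB consensus was found in 4 of the 8 promoters (Cxcl1, Cxcl2, Cxcl3 and Cxcl10), against 7.25% of all promoters. Cxcl1, Cxcl2 and Cxcl3 are of 1 family and lie close together on chromosome 5, so their matches need not be independent. Cxcl10 held GGGAAATTCC from base 159 and GGGGACTTCCC from base 104 before the start, and the ISRE match GAAAGTGAAA from base 213. An ISRE match was also present in the Cxcl14 promoter from base 172 (GAAACAGAAA), against 2.98% of all promoters. The interferon gamma-activated site TTCNNNGAA was matched in Cxcl14 (7.02% of all promoters), the AP-1 motif TGANTCA in Cxcl10 (6.75%) and TATAAA in Cxcl3, Cxcl9 and Cxcl13 (12.4%). All motifs were searched on both strands. These are matches of letters in a short window, and binding was not measured.

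**Figure D1:**
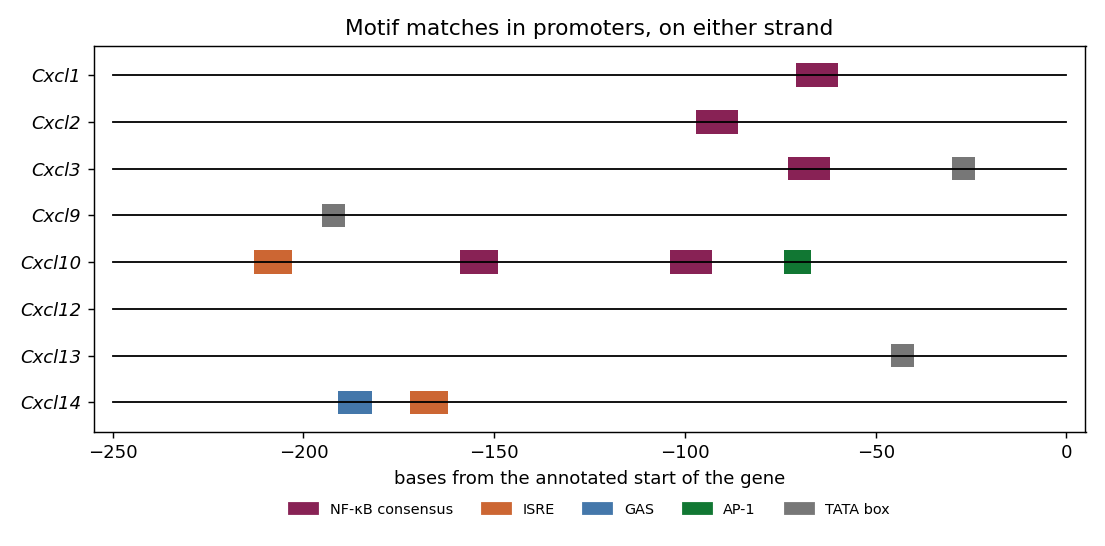
Positions of motif matches in the 250 bases before the annotated start of 8 CXC chemokine genes (horizontal axis: bases from the start, coloured boxes: matches on either strand). Cxcl1, Cxcl2 and Cxcl3 each hold 1 NF-κB run, beginning 71, 97 and 73 bases before the start, Cxcl10 holds NF-κB, ISRE and AP-1 matches, and Cxcl12 holds none of the motifs searched.

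Pneumonia was accompanied by higher expression of 9 of the 10 CXC chemokine genes by limma (calls required an adjusted p of 0.05 or less), and 8 of them were at least 2-fold higher. No gene of the 10 was called lower, and Cxcl12 was not called. Over the whole table, 44.1% of rows were called in either direction, 6.37% were called and at least 2-fold higher in SP, and 11.3% were called and at least 2-fold lower. The groups did not overlap for 9 of the 10 genes, against 49.0% of all rows. The median difference of the 10 genes was 1.98 log2 units, against 0.10 over all rows. Expression is given throughout as the log2 values of the authors, in which 1 unit is a 2-fold step. Values of different genes come from different probes, so levels are compared between groups within a gene and not between genes. The study describes the profiled samples as coming from single mice, which the labels do not state, and p-values measure the spread between these samples.

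The arrays as a whole set the frame for these values. Array medians lay between 6.06 and 6.2 in PBS and between 5.78 and 5.91 in SP. On each array 3 genes of the Y chromosome, which female mice lack, lay between 4.33 and 4.90, and this served as the level of background. The highest value of an array lay between 13.95 and 14.45. Markers of neutrophils were bright in both groups, with list means per array of 12.86 to 13.17 in PBS and 12.64 to 13.07 in SP, Lcn2 (13.21 to 13.65) and Retnlg (12.56 to 13.39) among them. Of 8 such markers with a row, Mmp9 (1.5-fold, adjusted p = 0.0238 by limma) and Retnlg (1.39-fold, 0.0418) were called lower in SP and none higher. Ly6g had no matched row, and the methods report its mRNA as high in all samples. Markers of lung epithelium and endothelium were present in both groups and were lower in SP, with values given beside the results they touch. In such bulk samples, fewer cells of a type and less RNA per cell cannot be told apart.

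**Figure D2:**
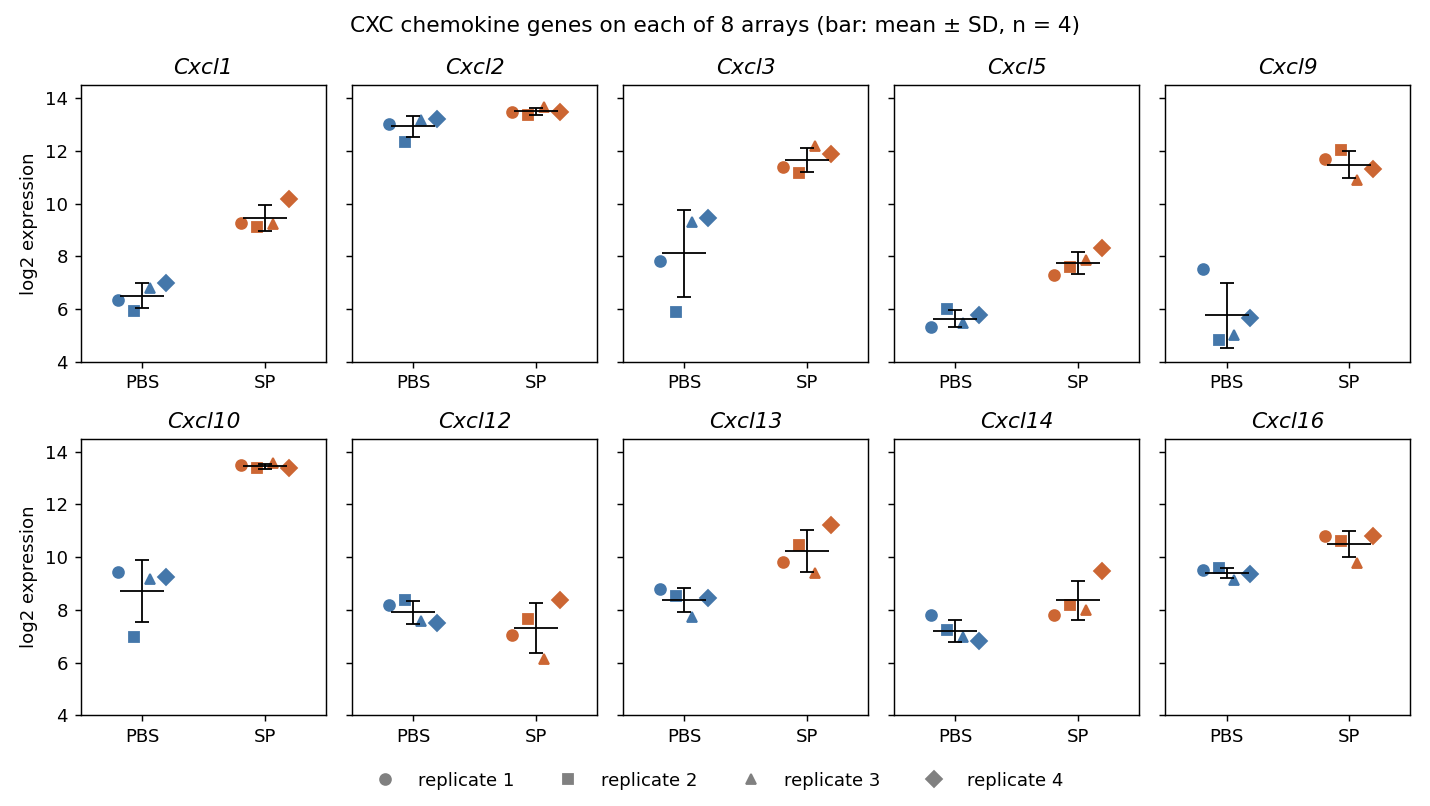
Log2 expression of the 10 CXC chemokine genes on each array (vertical axis, symbols mark the replicate number, horizontal bars and whiskers give mean ± SD of 4 arrays). PBS and SP values do not overlap for 9 genes, and overlap for Cxcl12, while PBS replicate 2 is low for Cxcl3 (5.89) and Cxcl10 (6.96).

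All 4 ELR genes were higher during pneumonia, by very different amounts. Cxcl3 (NM_203320) was 11.6-fold, Cxcl1 (NM_008176) 7.69-fold, Cxcl5 (NM_009141) 4.33-fold and Cxcl2 (NM_009140) 1.49-fold higher.

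Cxcl1, also known as KC, lay at 6.34, 5.91, 6.80 and 6.99 in PBS replicates 1 to 4 and at 9.26, 9.13, 9.24 and 10.18 in SP replicates 1 to 4. The lowest SP array was 2.14 log2 units above the highest PBS array. The difference was 2.94 ± 0.30 (standard error, n = 4 per group, 95% confidence interval 2.26 to 3.62, adjusted p = 0.000133 by limma). Cxcl5, known as LIX and in the mouse lung made largely by alveolar type 2 epithelium, lay at 5.32, 6.01, 5.46 and 5.79 in PBS and at 7.30, 7.59, 7.85 and 8.30 in SP. Its PBS values were low, not far above the Y-linked level, and the groups were separated by 1.29. The difference was 2.11 ± 0.23 (95% confidence interval 1.59 to 2.64, adjusted p = 0.000199 by limma). Over the same arrays the mean of 8 alveolar type 2 markers moved the other way, from 11.66 to 12.27 in PBS to 9.74 to 11.21 in SP, with 7 of the 8 markers lower. SP replicate 4 had the highest value of its group for both Cxcl1 and Cxcl5, and for this marker list. SP replicate 3 had the lowest mean of this list (9.74) but the lowest value of neither gene.

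Cxcl3, a close relative of Cxcl2, was the most variable of the ELR genes in PBS. Its values were 7.83, 5.89, 9.29 and 9.45 in PBS and 11.37, 11.17, 12.17 and 11.89 in SP. The groups did not overlap, but the PBS arrays alone spanned 3.56 log2 units. The difference of 3.54 ± 0.73 (95% confidence interval 1.86 to 5.21, adjusted p = 0.00527 by limma) therefore had the widest interval of the 10 genes. It was 2.79 without PBS replicate 2, which was far below the other PBS arrays.

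Cxcl2, known as MIP-2, was bright in the bead-selected samples of both groups. It lay at 13.00, 12.35, 13.16 and 13.19 in PBS and at 13.49, 13.36, 13.68 and 13.47 in SP, near the top of the scale of these arrays. The groups were separated by 0.17, and the difference of 0.57 ± 0.19 (95% confidence interval 0.15 to 1.0) passed the threshold narrowly (adjusted p = 0.0360 by limma). The methods' t-test did not call it (adjusted p = 0.0682), nor did limma when PBS replicate 1 or any 1 of the 4 SP replicates was omitted (0.0512 to 0.0752). Without PBS replicate 2 the difference was 0.38.

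The T cell attractants had the largest differences of the 10 genes. Cxcl9 (NM_008599), also called MIG and induced chiefly by interferon gamma, lay at 7.53, 4.81, 5.03 and 5.66 in PBS and at 11.70, 12.04, 10.89 and 11.30 in SP. PBS replicates 2 and 3 were at about the Y-linked level, while PBS replicate 1 was clearly above it. The difference was 5.73 ± 0.57 (52.9-fold, 95% confidence interval 21.4 to 131, adjusted p = 0.000124 by limma), and a fold against values near background is not exact. It was 6.32 without PBS replicate 1. On that array the marker lists of B cells (8.51, against 7.62 to 7.82 on the other PBS arrays), T cells (6.01, against 5.34 to 5.55) and alveolar macrophages (9.96, against 9.31 to 9.47), monocytes and macrophages (9.11, against 8.24 to 8.80), dendritic cells (6.33, against 5.90 to 6.09) and fibroblasts (8.91, against 8.12 to 8.46) were also highest among PBS arrays, and their part in the Cxcl9 value was not tested.

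Cxcl10 (NM_021274), known as IP-10 and induced by both types of interferon, lay at 9.45, 6.96, 9.19 and 9.23 in PBS and at 13.50, 13.37, 13.56 and 13.38 in SP. The SP arrays were within 0.19 of each other, and the lowest of them was 3.93 above the highest PBS array, the widest gap of the 10 genes. These SP values lay as near the top of the scale as those of Cxcl2, and whether signals were compressed there was not tested. The difference was 4.75 ± 0.50 (26.8-fold, 95% confidence interval 12.1 to 59.4, adjusted p = 0.000166 by limma). It was 4.16 without PBS replicate 2. PBS replicate 2 was the lowest PBS array for 5 of the 10 genes, namely Cxcl1, Cxcl2, Cxcl3, Cxcl9 and Cxcl10, and the highest for 3, namely Cxcl5, Cxcl12 and Cxcl16. On that array the means of the inducing cytokines (6.60, against 7.14 to 7.34) and of the regulators (below the 10.53 to 10.84 of the other arrays) described later were lowest among PBS arrays as well, and so were those of neutrophil markers (12.86, against 12.98 to 13.17) and of monocyte and macrophage markers (8.24, against 8.73 to 9.11). Highest among PBS arrays there were the markers of ciliated cells (10.11, against 9.27 to 9.68), alveolar type 2 cells (12.27, against 11.66 to 11.75), club cells (13.27, against 12.88 to 13.10) and endothelium (11.20, against 10.26 to 10.88). Their part in the values of this array was not tested.

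**Figure D3:**
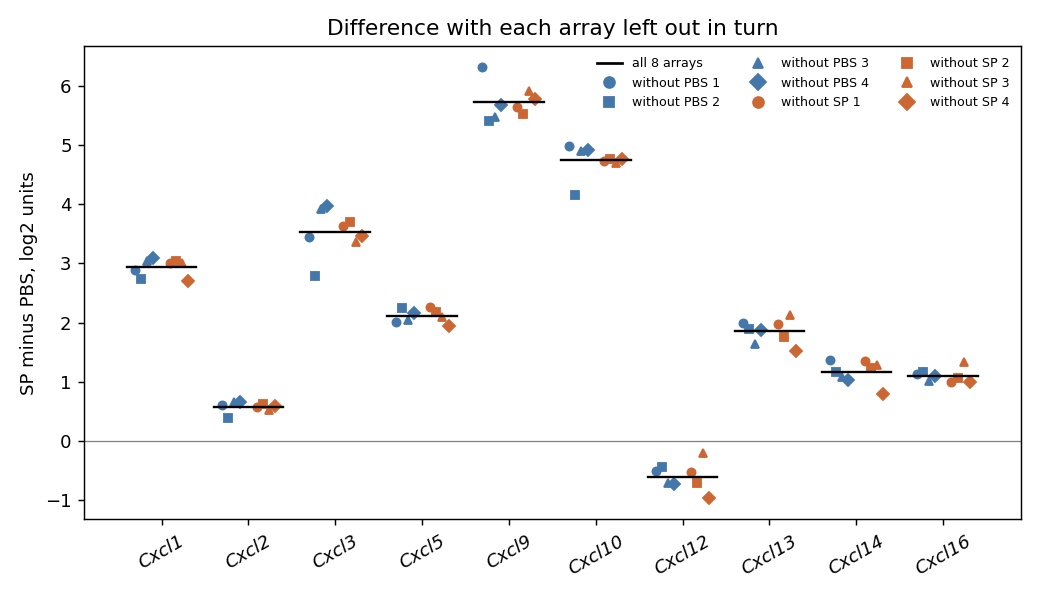
Difference between SP and PBS in log2 units for each gene with all 8 arrays (black line) and with 1 array left out (symbols, blue for PBS arrays and orange for SP arrays). Leaving out PBS replicate 2 lowered the difference of Cxcl3 to 2.79 and that of Cxcl10 to 4.16, leaving out PBS replicate 1 raised that of Cxcl9 to 6.32, and no array turned the direction of any gene.

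The remaining genes are chemokines of stroma, epithelium and myeloid cells. Cxcl13, Cxcl14 and Cxcl16 were higher in SP, while Cxcl12 was not called. Cxcl13 (NM_018866), which attracts B cells through Cxcr5, lay at 8.81, 8.51, 7.73 and 8.47 in PBS and at 9.81, 10.48, 9.40 and 11.21 in SP. It was 3.59-fold higher (1.85 ± 0.39, 95% confidence interval 0.94 to 2.75, adjusted p = 0.00608 by limma), with no overlap. B cell markers went the opposite way, with 6 of 7 genes at least 2-fold lower in SP and list means of 7.62 to 8.51 in PBS and 6.04 to 7.08 in SP.

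Cxcl16 (NM_023158) lay at 9.50, 9.59, 9.15 and 9.37 in PBS and at 10.79, 10.62, 9.79 and 10.80 in SP. SP replicate 3 was lowest of its group, 0.20 above the highest PBS array. The difference was 1.10 ± 0.23 (2.14-fold, 95% confidence interval 1.49 to 3.07, adjusted p = 0.00533 by limma). Cxcl14 (NM_019568) lay at 7.79, 7.22, 6.96 and 6.81 in PBS and at 7.81, 8.17, 8.00 and 9.46 in SP. The lowest SP array was only 0.01 above the highest PBS array, so the groups barely separated. The difference of 1.16 ± 0.37 (2.24-fold, adjusted p = 0.0350 by limma) missed the threshold with the methods' t-test (0.0739), and also when PBS replicate 2, 3 or 4 or SP replicate 2 was omitted (0.0561 to 0.0868). It was 0.79 without SP replicate 4.

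Cxcl12 (NM_001012477), the stromal ligand of Cxcr4, lay at 8.20, 8.38, 7.58 and 7.5 in PBS and at 7.06, 7.65, 6.13 and 8.39 in SP. The groups overlapped, and the SP arrays spanned 2.26 log2 units. The difference was -0.61 ± 0.45 (95% confidence interval -1.64 to 0.43, adjusted p = 0.279 by limma), an interval that holds both falls and rises. Omitting SP replicate 4 gave -0.97, and omitting SP replicate 3 gave -0.21.

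Several of these values moved with markers of fibroblasts and of other lung cells within the SP group. SP replicate 4 had the highest value of its group for Cxcl12 (8.39), Cxcl13 (11.21), Cxcl14 (9.46) and Cxcl16 (10.80), and the highest mean of 7 fibroblast markers (9.08, against 7.26 to 8.11). SP replicate 3 had the lowest value for Cxcl12 (6.13), Cxcl13 (9.40) and Cxcl16 (9.79), and the lowest fibroblast mean (7.26). Monocyte and macrophage markers had the same order at the ends, with 9.71 in SP replicate 4 and 8.39 in SP replicate 3, and endothelial markers had 9.87 and 8.70. The same held for markers of alveolar macrophages (8.99 and 8.42), alveolar type 2 cells (11.21 and 9.74), club cells (11.52 and 10.78) and mesothelium (6.95 and 5.78). Neutrophil markers were highest of the SP arrays in SP replicate 3 (13.07, against 12.64 to 12.79). Between groups, 2 of 7 fibroblast markers and 7 of 9 endothelial markers were lower and none higher, and 3 of 8 monocyte and macrophage markers were higher and none lower in SP. Of 7 alveolar macrophage markers, 4 were lower and 1 was higher in SP. The part of these cells in the 4 chemokine values was not tested.

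**Figure D4:**
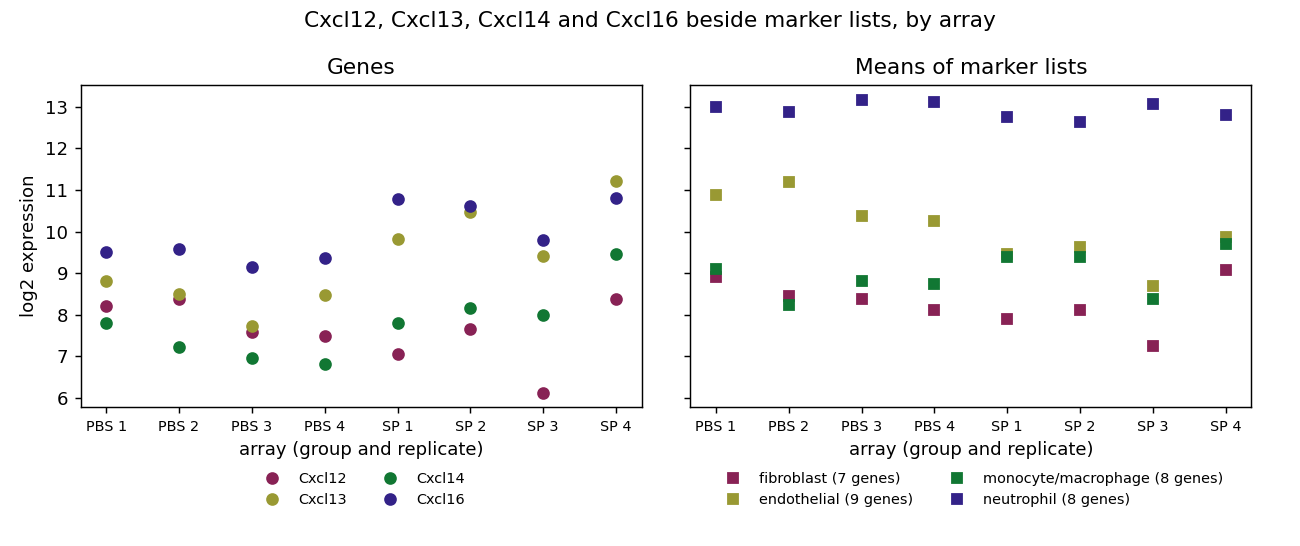
Log2 expression of Cxcl12, Cxcl13, Cxcl14 and Cxcl16 (left) and mean log2 expression of 4 marker lists (right) on each of the 8 arrays. SP replicate 4 is highest and SP replicate 3 lowest of the SP arrays for Cxcl12 and for fibroblast markers, while neutrophil markers stay between 12.64 and 13.17.

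Further CXC ligands were compared to see whether the family moved as a whole, and it did not. Of 4 with a row, 3 were at least 2-fold lower in SP, against 11.3% of all rows. None of these 4 was higher, and their median difference was -1.91 log2 units. Cxcl15, or lungkine, an ELR chemokine of lung epithelium, fell 3.23-fold (adjusted p = 0.00577 by limma), with PBS arrays at 13.38 ± 0.14 and SP arrays at 11.69 ± 0.82 (SD, n = 4). Cxcl17, a mucosal chemokine, fell 4.90-fold (adjusted p = 0.000171 by limma). Ppbp, the platelet ELR chemokine, fell from 8.95 to 6.83 (adjusted p = 0.00697 by limma), while Pf4, also of platelets, differed by -0.18 and was not called (adjusted p = 0.690 by limma). Club cell markers, with all 4 genes lower and list means of 12.88 to 13.27 in PBS and 10.78 to 11.52 in SP, and alveolar type 2 markers fell alongside Cxcl15 and Cxcl17. Of 6 platelet markers 1 was lower and 1 higher. Cxcl11, the remaining Cxcr3 ligand, had no matched row and is missing from these counts. The study itself reports Cxcl11 as strongly higher during pneumonia, in its array profiling and by quantitative PCR of independent samples. By the same PCR it reports Cxcl1, Cxcl5 and Cxcl9 as higher too, each by a larger fold than on its arrays, with Cxcl5 not detectable in PBS. In gene order on chromosome 5, Cxcl5, Ppbp, Pf4, Cxcl3, Cxcl15, Cxcl1 and Cxcl2 follow each other with no other protein-coding gene listed between them in RefSeq, so genes that rose and genes that fell lay side by side.

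Of the receptors of these chemokines, 7 had a row, of which 4 were higher and none lower, with a median difference of 0.64. This was 57.1% called, against 44.1% of all rows called in either direction. Cxcr2, the neutrophil receptor of the ELR chemokines, was at 13.11 ± 0.13 in PBS and 12.86 ± 0.09 in SP (SD, n = 4). The difference of -0.24 was not called (adjusted p = 0.0562 by limma). SP array medians lay below those of PBS by 0.28 on average, while the median difference over all rows was 0.10. Cxcr4, the receptor of Cxcl12, lay at 11.60 and 12.20 (adjusted p = 0.137), and Cxcr5 at 6.64 and 6.23 (0.125). Ackr1, a scavenging receptor that takes up inflammatory chemokines without signalling, rose 4.49-fold, from 5.81 to 6.05 in PBS to 7.82 to 8.54 in SP (adjusted p = 2.62e-05 by limma). Ackr3 and Cxcr6 were 1.56-fold and 1.55-fold higher (adjusted p = 0.00466 and 0.00362). Cxcr3, the receptor of Cxcl9 and Cxcl10, was 2.08-fold higher (adjusted p = 0.0184), at 5.69, 5.21, 5.42 and 5.34 in PBS and 6.89, 7.13, 5.85 and 6.02 in SP. The same SP replicates 1 and 2 that were high for Cxcr3 had the highest means of T cell markers (6.43 and 6.61, against 5.59 and 5.50). Of 6 T cell markers only Cd3d was called higher, and it was highest on SP replicate 3 (6.22), where Cxcr3 was lowest. The part of T cells in Cxcr3 was not tested. Cxcr1 had no matched row. The count of 4 receptors became 7 with array weights and 2 when dim rows were left out of the fit.

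**Figure D5:**
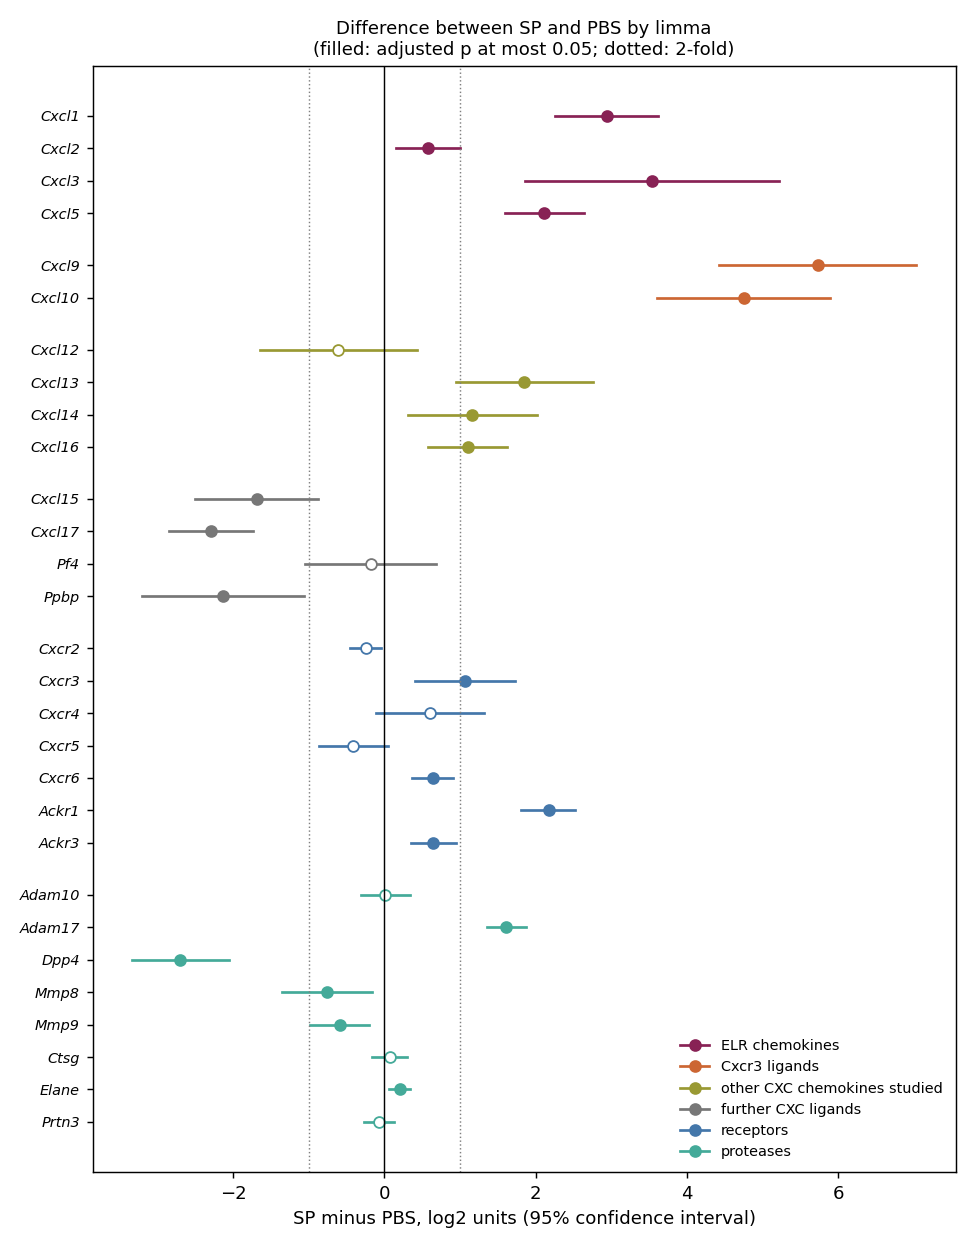
Difference between SP and PBS in log2 units with its 95% confidence interval by limma, for the 10 CXC chemokine genes, further ligands, receptors and proteases (filled symbols: adjusted p at most 0.05, dotted lines: 2-fold). Cxcl9 and Cxcl10 lie farthest to the right at 5.73 and 4.75, whereas Cxcl15, Cxcl17, Ppbp and Dpp4 lie to the left.

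Proteases that cut or shed CXC chemokines went both ways, with 2 of 8 higher and 3 lower, and a median difference of -0.03. The share called was 62.5%, against 44.1% of all rows. Dpp4, which trims and inactivates Cxcl10 and Cxcl12, was 6.49-fold lower (adjusted p = 0.000149 by limma). All 4 mesothelial markers with a row were lower as well, with list means of 9.1 to 9.81 in PBS and 5.78 to 6.95 in SP. Markers of lung epithelium were also lower, as described above. The part of these cells in the Dpp4 values was not tested. The neutrophil metalloproteinases Mmp8 and Mmp9, which process ELR chemokines, were 1.70-fold and 1.5-fold lower (adjusted p = 0.0426 and 0.0238). Adam17 was 3.06-fold higher (adjusted p = 2.52e-05), and Adam10, the main sheddase of Cxcl16, differed by 0.01 (95% confidence interval -0.31 to 0.34). The azurophil proteases Ctsg, Elane and Prtn3 lay between 4.24 and 4.83, no higher than the Y-linked genes, and among them only Elane was called (4.58 in PBS and 4.78 in SP, adjusted p = 0.0295). The count of 5 called proteases was 2 or 3 when any 1 PBS array, SP replicate 1 or SP replicate 2 was left out.

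Cytokines that induce CXC chemokines were higher for 5 of 7 genes (71.4%, against 44.1% of all rows called), 3 of them at least 2-fold. Tnf and Il1a, which induce the ELR genes through NF-κB, rose from 8.74 to 12.75 and from 8.29 to 13.43 (adjusted p = 0.000183 and 1.62e-05 by limma). Il1b lay at 13.02 and 13.21 and was not called (adjusted p = 0.242 by limma). Both Il1b means lay near the top of the scale, and whether signals were compressed there was not tested. By quantitative PCR of independent samples, the study reports Il1b as higher during pneumonia. Ifng, the main inducer of Cxcl9, was 2.31-fold higher (adjusted p = 0.0220 by limma). It lay at 6.08, 5.52, 5.78 and 5.34 in PBS and 7.39, 7.63, 6.27 and 6.26 in SP. The higher SP values were on SP replicates 1 and 2, which had the higher means of T cell markers. Cxcl9 itself was also highest on those arrays, at 11.70 and 12.04. On SP replicates 3 and 4 the T cell means (5.59 and 5.50) lay within the PBS range of 5.34 to 6.01. Cxcl9 there was 10.89 and 11.30, above every PBS array, and Ifng was also above every PBS array. By flow cytometry, the study reports more interferon gamma protein in lung neutrophils during pneumonia. The part of T cells or of Ifng in these values was not tested. Il17a and Il17f were 1.20-fold higher each but lay between 4.47 and 5.11, about the Y-linked level. Ifnb1 was not called (adjusted p = 0.122), with all arrays between 4.28 and 5.37 apart from SP replicate 3 at 6.88. The count of 5 was 2 without PBS replicate 2 or PBS replicate 4, and 3 or 4 without any other 1 array.

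Of 7 regulators of CXC chemokine transcription and mRNA decay, 5 were higher and none lower (71.4% called, against 44.1% of all rows). The NF-κB subunits Nfkb1 and Rela rose 2.72-fold and 1.70-fold (adjusted p = 9.41e-05 and 0.000324 by limma), and the interferon-activated factor Irf1 rose 3.27-fold (0.000291). Zc3h12a, the RNase Regnase that degrades inflammatory mRNA, rose 6.56-fold (0.000389). Zfp36, which destabilises Cxcl1 and Cxcl2 mRNA, differed by 0.33 and Nfkbiz, a coactivator at NF-κB promoters, by 0.74, and neither was called (0.0573 and 0.0889), although both were with arrays centred on their medians.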

How the data were processed

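Gene expression was measured on 8 arrays, 4 PBS and 4 SP, grouped by sample title. According to the methods and the labels, the authors deposited log2 values from robust multi-array averaging (RMA; Affymetrix Expression Console and Partek are named), with background, GC content and probe sequence correction, quantile normalization and median polish. These values are relative within an array, so a change in total RNA cannot be read from them, and signals near the top may be compressed. All 8 value columns were used. Row identifiers were matched to symbols through RefSeq transcripts of GRCm38.p6 (19915 of 24625 rows). No genome build is attached to the values. The number of arrays limits the precision.

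SP was compared with PBS by limma (version 3.58.1, R 4.3.3; lmFit and eBayes, two-sided, no covariates) with Benjamini-Hochberg adjustment over all rows. A row was called at an adjusted p of at most 0.05. The study's own test was one-way ANOVA, here called the methods' t-test and run as an alternative. On simulated data with 200 changed rows of 24625, limma recovered 93.0% of changes of 2 log2 units and 72.0% of changes of 1, with 11 false calls. In the real data 44.1% of rows were called, a far larger share, so these rates need not hold there. Alternatives were array weights, a robust prior with trend, the replicate number as a block, median centring, another quantile normalization, omission of dim rows, 1 row per symbol, limma treat, leaving out each array, and, chosen after seeing the data, leaving out PBS replicate 2 and SP replicate 3 together. Figures and motif searches used Python 3.11.15.

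The 10 genes and the lists were chosen with earlier results of these data known. Named genes were the 10 members, genes of the ligand, receptor, protease, inducer and regulator lists, and the brightest markers. Cd3d, the only T cell marker called, and the rows most like the members with the largest rise and fall were also named. The values of 1 gene of the regulator list are not reported here. Cxcr2 and Mmp9 stand on 2 lists each, their own and the neutrophil markers. Same-numbered samples were not treated as paired, since neither the sample titles nor the methods state a pairing. Their deviations from the group means correlated at 0.02, 0.03, 0.35 and -0.27.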

Additional observations from a re-analysis of the deposited data

Results flagged for a closer look

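In 2 of 20 groups of 4 arrays, 1 value stood far from the other 3 by Dixon's ratio, a test that flags about 1 in 20 groups by chance. Cxcl10 lay at 6.96 in PBS replicate 2, against 9.19 to 9.45 on the other PBS arrays. Cxcl1 lay at 10.18 in SP replicate 4, against 9.13 to 9.26 on the other SP arrays.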

How the results depend on the processing

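The differences of Cxcl1, Cxcl5, Cxcl9 and Cxcl10 kept direction and call under all 18 alternatives, and no alternative turned the direction of any of the 10 genes. Cxcl12 was called under none of them, with adjusted p from 0.0722 to 1. The replicate block left 8 of the 10 genes called, and only Cxcl14 lost its call (1.16, adjusted p = 0.0747). All 7 regulators, Zfp36 and Nfkbiz included, were called with the replicate block and with median centring, against 5. Whether samples with the same replicate number were handled together is not stated in the titles or the methods. Under the methods' t-test Cxcl2 (0.57, 0.0682) and Cxcl14 (1.16, 0.0739) lost their calls. Tested against a difference of 1 log2 unit by limma treat, 4 of the 10 genes were called (Cxcl1, Cxcl5, Cxcl9 and Cxcl10), and Cxcl2 (0.57), Cxcl3 (3.54), Cxcl13 (1.85), Cxcl14 (1.16) and Cxcl16 (1.10) were not, with 1572 rows called in all, 1 further ligand, 1 receptor, 2 proteases, 2 inducing cytokines and 1 regulator. Median centring, which raises every SP difference by 0.28 on average, gave 18255 called rows against 10860, and called all 7 inducing cytokines. Array weights called 7 receptors, and 2 receptors and 3 inducing cytokines were called with dim rows left out. Another quantile normalization called 3 inducing cytokines. Without both PBS replicate 2 and SP replicate 3, 8 of the 10 genes, 7 receptors and 3 inducing cytokines were called, Cxcl14 lost its call (1.29, adjusted p = 0.0635), and the differences of Cxcl12, Cxcl3 and Cxcl2 were -0.06, 2.62 and 0.32. With 1 array left out, 7 to 8 of the 10 genes were called and 6 to 8 at 2-fold, with 2 to 5 proteases and 2 to 4 inducing cytokines. The difference of Cxcl2 ranged from 0.38 to 0.66 and that of Cxcl14 from 0.79 to 1.36. Each of these calls beyond the 10 genes rests on few arrays, and the cause was not tested where calls changed.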

Other observations

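The genes whose values were most like those of Cxcl9 over the 8 arrays were Il2rg (Pearson r = 0.998), the shared receptor chain of several lymphocyte cytokines, P2ry14 (0.995), a receptor for UDP-glucose, and Ctss (0.994), the protease cathepsin S. Il2rg had means of 10.52 in PBS and 12.30 in SP. For Cxcl12, the gene of the 10 with the lowest difference, they were Srp68 (0.989), Cdc25a (0.985) and Trip10 (0.983), whose group means differed by less than 0.3 log2 units. The arrays fall into the PBS and SP groups, so the coefficients for Cxcl9 hold the difference between groups, and they describe likeness over 8 arrays only.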
